A study of Mus musculus with 39 samples.

Results

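The Wnt pathway genes described here were 49 genes of the 53715 in the count table: 17 Wnt ligands, 12 receptors (Fzd1 to Fzd10, Lrp5 and Lrp6), 6 genes of the R-spondin and Lgr group, 8 secreted inhibitors, and 6 nuclear effectors and feedback targets. They were chosen by gene symbol, whatever their level, and all 49 symbols were found. Wnt ligands are secreted, lipid-bearing proteins that bind a Frizzled receptor and, in the β-catenin branch of the pathway, an Lrp5 or Lrp6 co-receptor, which lets β-catenin reach the nucleus and work with transcription factors of the TCF/LEF family. R-spondins bind Lgr receptors and keep Frizzled proteins at the cell surface, whereas Sfrp, Dkk and Wif proteins hold the ligands or the co-receptors back. In the mammary gland the pathway is known for its part in the formation of the gland, in side branching and in the upkeep of stem and progenitor cells, and mouse Wnt1 is a classical mammary oncogene.

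RNAseq was carried out on 39 mammary tumours, all labelled as adenocarcinoma of no special type and taken from adult female mice. All mice carried BlgCre, in which the β-lactoglobulin promoter drives Cre in the mammary epithelium, together with Brca1flox/flox and p53 +/-, and they differed in the floxed allele of the SRC-family kinase gene Lyn: 12 tumours were Lynwt/wt, 14 were Lynflox/wt and 13 were Lynflox/flox. The study also grouped the tumours by their own expression values, once by principal component analysis (PCA group 1/2, 29 tumours; PCA group 3/4, 10 tumours) and once by the Lyn count (Lyn-high, 13 tumours; Lyn-low, 13 tumours; the other 13 are called intermediate here). Since those 4 groups were made from the same libraries that are compared below, p-values between them are not independent of the grouping. The 39 tumours came from 28 animals, and 20 of them shared an animal with another (9 animals).

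The total count per tumour lay between 50490044 and 83122719 (median 62409143), so depth differed little between tumours. Lyn RNA was read in every tumour of every genotype, and the genotypes overlapped: the normalised Lyn count was 1771.9 to 11705.9 (median 3128.0) in Lynwt/wt, 1637.9 to 5308.4 (median 3004.2) in Lynflox/wt and 656.6 to 5865.5 (median 1686.4) in Lynflox/flox tumours. Of the Lyn-high tumours 6 were in PCA group 3/4 and 7 in PCA group 1/2, whereas all 13 Lyn-low tumours were in PCA group 1/2. The database numbers of the tumours fall into an earlier and a later autopsy year, and these were not balanced either, with 7 of 10 PCA group 3/4 tumours and 11 of 29 PCA group 1/2 tumours from the earlier year. In 11 tumours (10 of PCA group 1/2) skeletal muscle or salivary gland marker genes summed to over 100 CPM (reads scaled to a fixed library total), and results that changed without them are named beside the result.

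Promoter windows were read for the genes on which the comparisons turned, to show whether the letters bound by TCF/LEF factors stand next to their start sites. The window was 250 bases before to 50 bases after a start site (RefSeq, GRCm38.p6), and 39 windows were held for 32 of the 49 genes. The motif searched on both strands was CTTTG followed by AA, AT, TA or TT, which gives 4 words of 7 letters that share their first 5 letters but cannot match at the same place on 1 strand. It stood in 16.9% of all 32851 windows and in 6 of the 39 windows here (15.4%), 1 each of Fzd7, Lef1, Wnt5b, Wnt11, Wnt3 and Dkk1. Windows of Rspo1 (chr4:124986180-124986479, plus strand), Wnt11 (chr7:98834862-98835161, plus strand) and Axin2 (chr11:108920099-108920398, plus strand) are shown because these genes passed the test in both comparisons of expression groups, and that of Fzd7 (chr1:59481897-59482196, plus strand) because it was the receptor with the highest level; capitals mark the motif, which reads as its reverse complement where it lies on the other strand.
Rspo1: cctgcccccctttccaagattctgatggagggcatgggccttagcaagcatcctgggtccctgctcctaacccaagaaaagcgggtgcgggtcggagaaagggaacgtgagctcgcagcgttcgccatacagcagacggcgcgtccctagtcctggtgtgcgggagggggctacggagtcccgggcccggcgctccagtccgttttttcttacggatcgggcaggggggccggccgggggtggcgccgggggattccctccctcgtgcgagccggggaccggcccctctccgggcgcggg
Wnt11: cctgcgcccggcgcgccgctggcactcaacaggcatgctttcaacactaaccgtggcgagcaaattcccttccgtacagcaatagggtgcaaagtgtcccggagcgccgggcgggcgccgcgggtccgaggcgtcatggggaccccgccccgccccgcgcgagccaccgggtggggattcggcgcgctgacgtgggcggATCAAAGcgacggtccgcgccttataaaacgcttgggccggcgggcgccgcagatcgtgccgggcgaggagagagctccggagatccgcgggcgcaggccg
Axin2: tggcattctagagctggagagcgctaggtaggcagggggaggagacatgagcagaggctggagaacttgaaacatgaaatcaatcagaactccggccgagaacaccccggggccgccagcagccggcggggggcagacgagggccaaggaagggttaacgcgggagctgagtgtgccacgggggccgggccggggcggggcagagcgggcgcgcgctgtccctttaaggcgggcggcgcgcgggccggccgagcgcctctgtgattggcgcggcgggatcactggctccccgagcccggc
Fzd7: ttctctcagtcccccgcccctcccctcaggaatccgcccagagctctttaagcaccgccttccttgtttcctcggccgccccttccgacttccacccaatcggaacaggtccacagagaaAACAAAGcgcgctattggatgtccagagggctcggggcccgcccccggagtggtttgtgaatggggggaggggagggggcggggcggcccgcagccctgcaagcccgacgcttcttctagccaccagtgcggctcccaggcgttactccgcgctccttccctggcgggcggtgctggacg
Wnt11 held 1 match, on the minus strand, that began 51 bases before the start site, and Fzd7 held 1, also on the minus strand, 130 bases before it. Rspo1 and Axin2 held none in these windows. A match is a description of the letters and says nothing of binding.

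Levels per length were compared first, as RPKM, the CPM of a gene divided by its exon length in kilobases. The receptors were the most abundant class: Fzd7 had the highest median of all 49 genes at 71.6 RPKM (23.4 to 177.0 over 39 tumours), followed by the co-receptors Lrp5 at 43.6 RPKM and, after 1 ligand, Lrp6 at 21.7 RPKM. That ligand, Wnt7b, which is best known from lung development, stood at 25.4 RPKM. The ranges of these 4 genes overlapped, so neighbours in this order were not apart beyond the spread between tumours. Lgr4, the R-spondin receptor, had a median of 15.8 RPKM, the transcription factor Tcf7 12.1 RPKM and the Wnt-binding inhibitor Sfrp1 9.24 RPKM, each the highest of its class. In all, 8 genes had a median of at least 10 RPKM, 14 had one from 1 to 10 RPKM and 27 stayed under 1 RPKM. Reads were found in every tumour for 31 of the 49 genes.

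**Figure D1:**
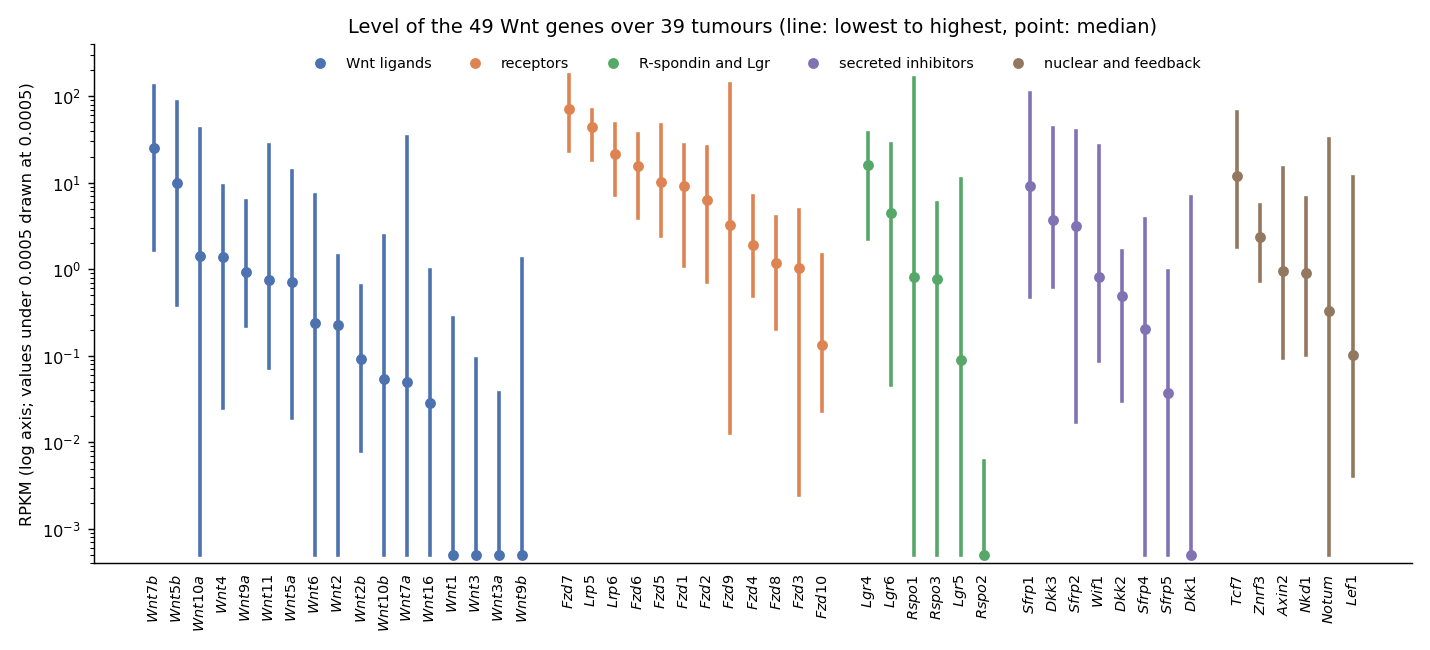
Level of each of the 49 Wnt pathway genes over the 39 tumours in RPKM on a log axis, grouped by role, with a line from the lowest to the highest tumour and a point at the median. Fzd7 has the highest median (71.6 RPKM), and many genes with a median under 1 RPKM still reach well above it in single tumours.

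Some genes were low in most tumours and far higher in 1 than in any other. Dkk1, which blocks Lrp5 and Lrp6, reached a normalised count of 1084.4 in the Lynwt/wt tumour 20 and at most 10.21 in any other. Wnt7a, a ligand known from limb and uterus, reached 6832.7 in the Lynwt/wt tumour 59 against 238.0 in the next tumour. Wnt9b, known from the kidney, reached 388.3 in the Lynwt/wt tumour 41 against 30.86. Lgr5, the stem cell marker of the gut and an R-spondin receptor, reached 7305.1 in the Lynflox/flox tumour 56 against 844.9. These 4 values came from 4 different tumours. Salivary gland markers summed to 251 CPM in tumour 41, the highest of all tumours, and to 84.2 CPM in tumour 59. They summed to 0.641 CPM in tumour 20 and 1.26 CPM in tumour 56. The part of salivary gland tissue in these values was not tested. Wnt1, the mammary oncogene, was without a read in 20 tumours and did not exceed 41.8.

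The first comparison asked which Wnt genes differed between the PCA groups. In PCA group 3/4 tumours the ligands Wnt4 and Wnt11, the R-spondin Rspo1 and the feedback target Axin2 were higher, and the ligand Wnt16, the receptors Fzd3 and Fzd9, the R-spondin receptor Lgr4, the R-spondin Rspo3, the inhibitor Sfrp1 and the transcription factor Lef1 were lower. Of the 49 genes, 43 passed the low-count filter (Wnt1, Wnt3, Wnt3a, Wnt9b, Rspo2 and Dkk1 did not), and 4 were called higher and 7 lower at an edgeR adjusted p under 0.05 and a fold of at least 2. Over all 19453 genes tested the same rule called 7.71% higher and 6.45% lower. By adjusted p alone, 5 of the 43 were higher and 13 lower, against 12.2% and 10.5% of all genes. The median log2 fold change was -0.69 over the 43 genes and -0.05 over all genes tested. In bulk tumour RNA, fewer cells of a type and less RNA per cell cannot be told apart.

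**Figure D2:**
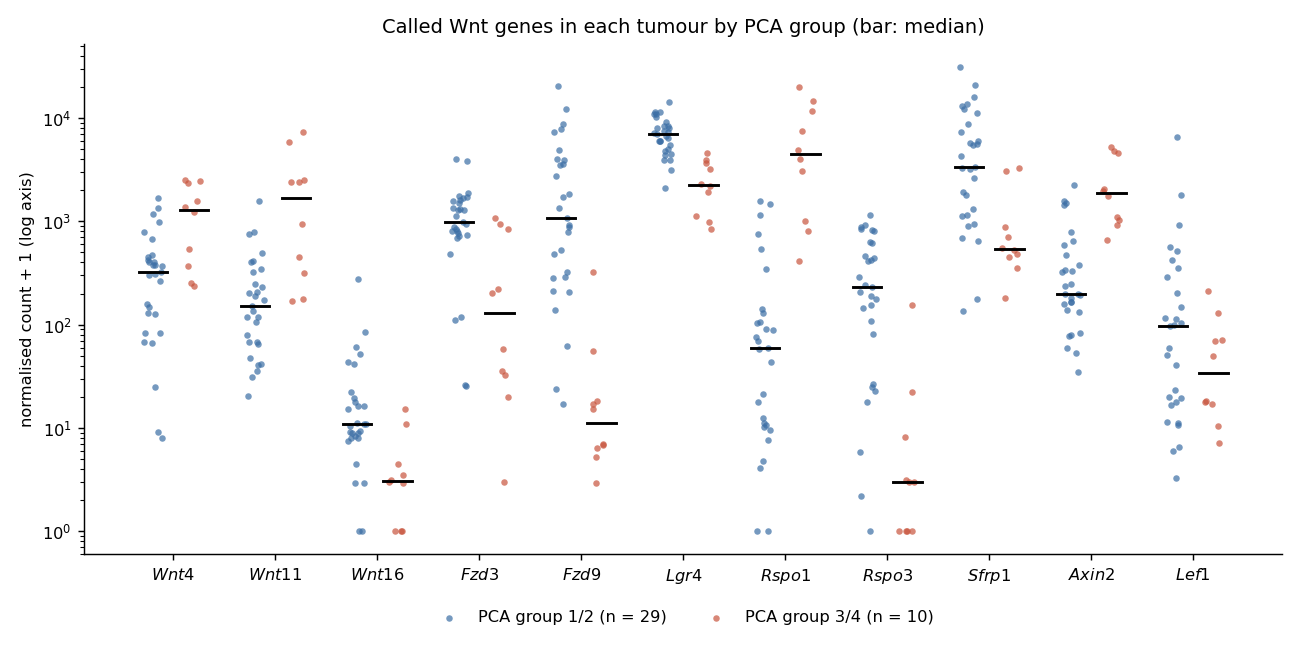
Normalised count of the 11 called Wnt genes in each tumour on a log axis (1 was added to each count), with the 29 tumours of PCA group 1/2 beside the 10 of PCA group 3/4 and a bar at each median. The groups overlap for every gene, least for Rspo1, of which 7 of the 10 PCA group 3/4 tumours lie above all PCA group 1/2 tumours.

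Among the ligands, Wnt11, which is known for signalling without β-catenin and for branching in the kidney, had a normalised count of 19.3 to 1581.7 (median 151.8) in PCA group 1/2 and 168.2 to 7363.6 (median 1672.0) in PCA group 3/4. The groups overlapped, with 5 of 10 PCA group 3/4 tumours above every PCA group 1/2 tumour. The log2 fold change was 3.14 ± 0.52 (SE, edgeR adjusted p = 1.87e-05). Wnt4, the ligand that acts downstream of progesterone in mammary side branching, ranged from 6.9 to 1674.9 (median 324.5) in PCA group 1/2 and from 237.4 to 2496.4 (median 1299.2) in PCA group 3/4. It was higher by 1.64 ± 0.51 on the log2 scale (adjusted p = 0.0163), and 8 of 10 PCA group 3/4 tumours lay above the PCA group 1/2 median. Wnt16, a ligand known from bone, was low throughout, from 0 to 275.2 (median 9.9) in PCA group 1/2 and from 0 to 14.4 (median 2.0) in PCA group 3/4, with a log2 fold change of -2.79 ± 0.84 (adjusted p = 0.0132). Without the tumours rich in muscle or salivary gland RNA the Wnt16 difference was -1.92 (adjusted p = 0.0826), and without the Lynwt/wt tumour 40, its highest, it was -2.20 (adjusted p = 0.0203). Skeletal muscle markers (1 of 8 called lower) summed to 0.672 to 3670 CPM in PCA group 1/2 and 2.47 to 118.0 CPM in PCA group 3/4.

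The other ligands did not pass the test. Wnt7b, the most abundant, ranged from 525.3 to 41074.4 (median 7055.5) in PCA group 1/2 and from 3651.2 to 36740.4 (median 15651.8) in PCA group 3/4, a log2 difference of 0.79 ± 0.37 (adjusted p = 0.126). Wnt10a and Wnt6, which lie 6194 bases apart on chromosome 1, had log2 differences of 1.75 (adjusted p = 0.109) and 1.67 (adjusted p = 0.115). Wnt6 passed the test without the tumours rich in muscle or salivary gland RNA (2.44, adjusted p = 0.0163). Wnt10a had the larger shift in medians, from 143.1 to 2459.4. Wnt7a, with its single high tumour, stood at -4.30 ± 1.62 (adjusted p = 0.0505), and it passed the test in 19 of the 39 fits that left out 1 tumour (-6.10 to -4.35). Of the rest, Wnt2, Wnt2b, Wnt5a, Wnt5b, Wnt9a and Wnt10b ranged from -0.94 to 0.64, and Wnt3 and Wnt3a, without a read in 28 and 35 tumours, were not tested. Of the 13 ligands tested, 2 were called higher and 1 lower, and 6 of the 13 log2 differences were positive.

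The receptors leaned to one side. Of the 12 receptors 11 had a negative log2 difference, 7 were lower by adjusted p, and 2, Fzd9 and Fzd3, were also lower by at least 2-fold, whereas none was higher (edgeR gave 0 with an unadjusted p below 0.05, and DESeq2 and limma voom called 0). Over all genes tested 10.5% were lower by adjusted p and 6.45% were also lower by at least 2-fold. The median log2 difference was -0.91 over the receptors and -0.05 over all genes tested. Fzd9 ranged from 16.1 to 20594.4 (median 1074.9) in PCA group 1/2 and from 1.9 to 324.4 (median 10.1) in PCA group 3/4. Of the PCA group 1/2 tumours, 20 of 29 lay above every PCA group 3/4 tumour. The log2 fold change was -6.10 ± 1.15 (adjusted p = 0.000114), the largest among the Wnt genes tested, and it was -7.80 (adjusted p = 6.69e-06) without the Lynflox/wt tumour 9. Fzd3, known from axon guidance and planar polarity, ranged from 24.6 to 4017.2 (median 983.3) in PCA group 1/2 and from 2.0 to 1073.6 (median 128.5) in PCA group 3/4, with a log2 fold change of -1.81 ± 0.65 (adjusted p = 0.0395).

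The Fzd3 call was the less firm of the 2. It was lost with the autopsy year as a covariate (-1.92, adjusted p = 0.0669), in the tumours of the earlier year alone (-1.01, adjusted p = 0.451), without the tumours rich in muscle or salivary gland RNA (-1.89, adjusted p = 0.0777) and in 8 of 39 fits that left out 1 tumour (Lynwt/wt tumours 3 and 21, Lynflox/wt tumours 8, 25, 30, 31 and 49, and Lynflox/flox tumour 54), where the log2 value lay between -1.77 and -1.66 and the adjusted p reached 0.0735. In the tumours of the later year alone it was -6.17 (adjusted p = 0.00153). The 3 PCA group 3/4 tumours of the later year had counts of 2.0 to 34.2, whereas the 7 of the earlier year ranged from 31.2 to 1073.6. The difference between the years was -5.18 on the log2 scale (edgeR interaction, p = 0.000557, adjusted p = 0.157), so it did not pass. In the same edgeR fit 0 of the 43 genes were called for an interaction of PCA group and autopsy year (8 at an unadjusted p under 0.05), against 0.0206% of all genes.

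The co-receptors Lrp5 and Lrp6 were among the genes with the smallest p, but under the 2-fold limit. Lrp5 ranged from 15083.2 to 42949.7 (median 33463.8) in PCA group 1/2 and from 11425.9 to 21531.0 (median 16429.8) in PCA group 3/4. Its log2 difference was -0.88 ± 0.17 (adjusted p = 0.000139), and 27 of 29 PCA group 1/2 tumours lay above the PCA group 3/4 median. Lrp6 differed by -0.96 ± 0.19 (adjusted p = 0.000248), from a median of 22362.6 to one of 11858.3. Fzd7, the most abundant receptor, fell by 0.68 on the log2 scale (SE 0.20, adjusted p = 0.0126), from a median of 22018.0 (12229.9 to 51719.1) to one of 13128.8 (6836.5 to 23534.7). Fzd4 and Fzd5 were lower by adjusted p as well, at -0.95 and -0.94. The remaining 5 receptors, Fzd1, Fzd2, Fzd6, Fzd8 and Fzd10, ranged from -1.12 to 0.44 and did not pass.

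The R-spondin and Lgr group held genes called in both directions. Rspo1, an R-spondin known to sustain mammary progenitor cells in culture, ranged from 0 to 1589.9 (median 59.0) in PCA group 1/2 and from 414.8 to 20101.3 (median 4498.3) in PCA group 3/4. Of the PCA group 1/2 tumours, 24 of 29 lay below every PCA group 3/4 tumour. The log2 fold change was 4.84 ± 0.79 (adjusted p = 1.39e-05), the smallest adjusted p of the Wnt genes. Rspo3, another R-spondin, went the other way, from 0 to 1150.5 (median 229.3) in PCA group 1/2 and from 0 to 154.5 (median 2.0) in PCA group 3/4. Its log2 fold change was -4.23 ± 1.06 (adjusted p = 0.00311), and it was -6.49 (adjusted p = 4.37e-05) without the Lynwt/wt tumour 3. That tumour held both the highest Rspo1 count of all tumours and the highest Rspo3 count of its PCA group.

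Lgr4, the receptor of the group with the highest level, was lower in PCA group 3/4, at 851.2 to 4611.9 (median 2263.3) against 2102.4 to 14189.0 (median 7013.8). The log2 fold change was -1.54 ± 0.26 (adjusted p = 2.72e-05), and 23 of 29 PCA group 1/2 tumours lay above every PCA group 3/4 tumour. Lgr5 (-2.57, adjusted p = 0.0785) and Lgr6 (-0.82, adjusted p = 0.462) did not pass. Rspo2 had no read in 34 of 39 tumours and was not tested.

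Of the secreted inhibitors, Sfrp1 alone was called. It ranged from 134.0 to 31139.8 (median 3388.1) in PCA group 1/2 and from 179.9 to 3308.2 (median 536.7) in PCA group 3/4, with a log2 fold change of -2.60 ± 0.69 (adjusted p = 0.00478). No PCA group 3/4 tumour lay above the PCA group 1/2 median. Wif1, which binds Wnt ligands outside the cell, had a log2 difference of -2.15 ± 0.84 (adjusted p = 0.0578), with medians of 231.4 and 33.4. Sfrp2, Sfrp4, Sfrp5, Dkk2 and Dkk3 ranged from -1.33 to 0.27 and did not pass.

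The feedback genes did not move as 1 group. Axin2, a scaffold of the β-catenin destruction complex and a widely used readout of the pathway, ranged from 33.5 to 2258.1 (median 197.3) in PCA group 1/2 and from 665.6 to 5284.2 (median 1868.9) in PCA group 3/4. All 10 PCA group 3/4 tumours lay above the PCA group 1/2 median, and the log2 fold change was 2.43 ± 0.47 (adjusted p = 0.000186). Tcf7, a TCF/LEF factor, was higher by adjusted p but under 2-fold, at 0.96 ± 0.33 (adjusted p = 0.0329), and Znrf3, the ligase that removes Frizzled proteins from the surface, was lower at -0.69 ± 0.21 (adjusted p = 0.0118). Nkd1, a feedback inhibitor, had a log2 difference of -0.48 (adjusted p = 0.557) and Notum, the enzyme that takes the lipid off Wnt ligands, one of -2.70 (adjusted p = 0.0731).

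Lef1, the other TCF/LEF factor among the 49 genes, was called lower, but on a thin base. It ranged from 2.3 to 6592.0 (median 96.2) in PCA group 1/2 and from 6.2 to 210.3 (median 32.9) in PCA group 3/4, with a log2 fold change of -2.87 ± 1.07 (adjusted p = 0.0482). Without the Lynwt/wt tumour 1, its highest, the value was -1.88 (adjusted p = 0.114). The call was lost in 15 more fits that left out 1 tumour (Lynwt/wt tumours 21 and 60, Lynflox/wt tumours 6, 8, 9, 19, 25, 30, 31 and 49, and Lynflox/flox tumours 35, 37, 54, 55 and 72), where the log2 value lay between -2.90 and -2.70 and the adjusted p between 0.0503 and 0.0802. It was also lost without a low-count filter, with counts summed per animal, with limma voom, within each autopsy year and without the tumours rich in muscle or salivary gland RNA.

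Within single autopsy years, which leave 7 and 3 PCA group 3/4 tumours, 4 of the 11 calls held in the earlier year (Rspo1, Axin2, Fzd9 and Lgr4) and 5 held in the later year (Wnt11, Fzd3, Fzd9, Rspo3 and Lgr4). The direction was the same in both years for the 10 genes that could be tested in both, and Wnt16 could be tested in the later year only. Fzd9 and Lgr4 passed in every alternative run (10 each). Wnt4 was at 1.26 (adjusted p = 0.279) in the earlier year and 2.00 (adjusted p = 0.124) in the later year, and Sfrp1 at -2.48 (adjusted p = 0.0534) and -3.35 (adjusted p = 0.121). Wnt11 (2.43, adjusted p = 0.0625) and Rspo3 (-3.36, adjusted p = 0.114) missed the threshold in the earlier year, and Rspo1 (2.87, adjusted p = 0.181), Axin2 (2.38, adjusted p = 0.055) and Wnt16 (-4.46, adjusted p = 0.141) missed it in the later year. In the later year alone 11 of 45 Wnt genes tested were called, 5 higher and 6 lower, so some of these were not called in the main fit. With the year as a covariate 12 genes were called, 5 higher and 7 lower.

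A group of 4 animals gave tumours to both PCA groups, 4 tumours to PCA group 3/4 and 5 to PCA group 1/2. Compared within an animal, on log2 CPM and with no test, 6 of the 11 genes differed in the same direction as over all tumours in all 4 animals: Wnt11, Wnt16, Fzd9, Lgr4, Rspo1 and Rspo3. The difference for Rspo1 was 2.84 to 11.17 (median 5.47) and that for Fzd9 -12.03 to -2.62 (median -5.86). Wnt4, Fzd3, Sfrp1 and Axin2 did so in 3 animals and Lef1 in 2. Axin2 ranged from -0.66 to 4.58 (median 2.91). These tumours were also part of the fit that called the 11 genes, so the shared direction is not independent of the calls.

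Marker genes of other cell types were read as well, and some lists differed between the PCA groups. Over all genes tested 7.71% were called higher and 6.45% lower. Of 10 macrophage marker genes 7 were called higher in PCA group 3/4, where they summed to 2460 to 9080 CPM against 604 to 3810 CPM. T cell markers (4 of 12 higher) summed to 18.5 to 279.0 CPM against 5.11 to 114.0 CPM, and B cell markers (2 of 9 higher) to 3.58 to 564.0 CPM against 1.40 to 87.5 CPM. Fibroblast markers (1 of 10 lower) summed to 723.0 to 13200 CPM (median 2710) against 266.0 to 9830 CPM (median 2450). Epithelial markers (2 of 8 higher), present in every tumour, summed to 1820 to 14600 CPM (median 5380) against 1340 to 7960 CPM (median 4810). Endothelial markers (1 of 9 lower) had medians of 207.0 and 227.0 CPM, and adipocyte markers (1 of 9 higher) of 111.0 and 44.1 CPM. A single call in a list of 9 or 10 is near the share of all genes. Markers of luminal progenitors (1 higher and 3 lower of 8), hormone-sensing luminal cells (3 higher and 2 lower of 7) and basal cells (2 higher of 10) moved in part, and the part of any of these cell types in the Wnt differences was not tested.

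The second comparison set the Lyn-high against the Lyn-low tumours. Here 3 genes, Wnt11, Rspo1 and Axin2, were called higher and 0 lower of the 41 Wnt genes tested (edgeR, which put 8 up and 10 down at an unadjusted p below 0.05, whereas DESeq2 called 5 higher and 2 lower). Over all 17709 genes tested 5.52% were called higher and 0.508% lower. By adjusted p alone 3 were higher and 3 lower, Fzd7, Lrp5 and Znrf3 (-0.69, adjusted p = 0.0387), against 6.58% and 1.07% of all genes. The median log2 difference was 0.04 over the 41 genes. Both comparisons use many of the same tumours, so the 3 genes are not found independently in each.

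**Figure D3:**
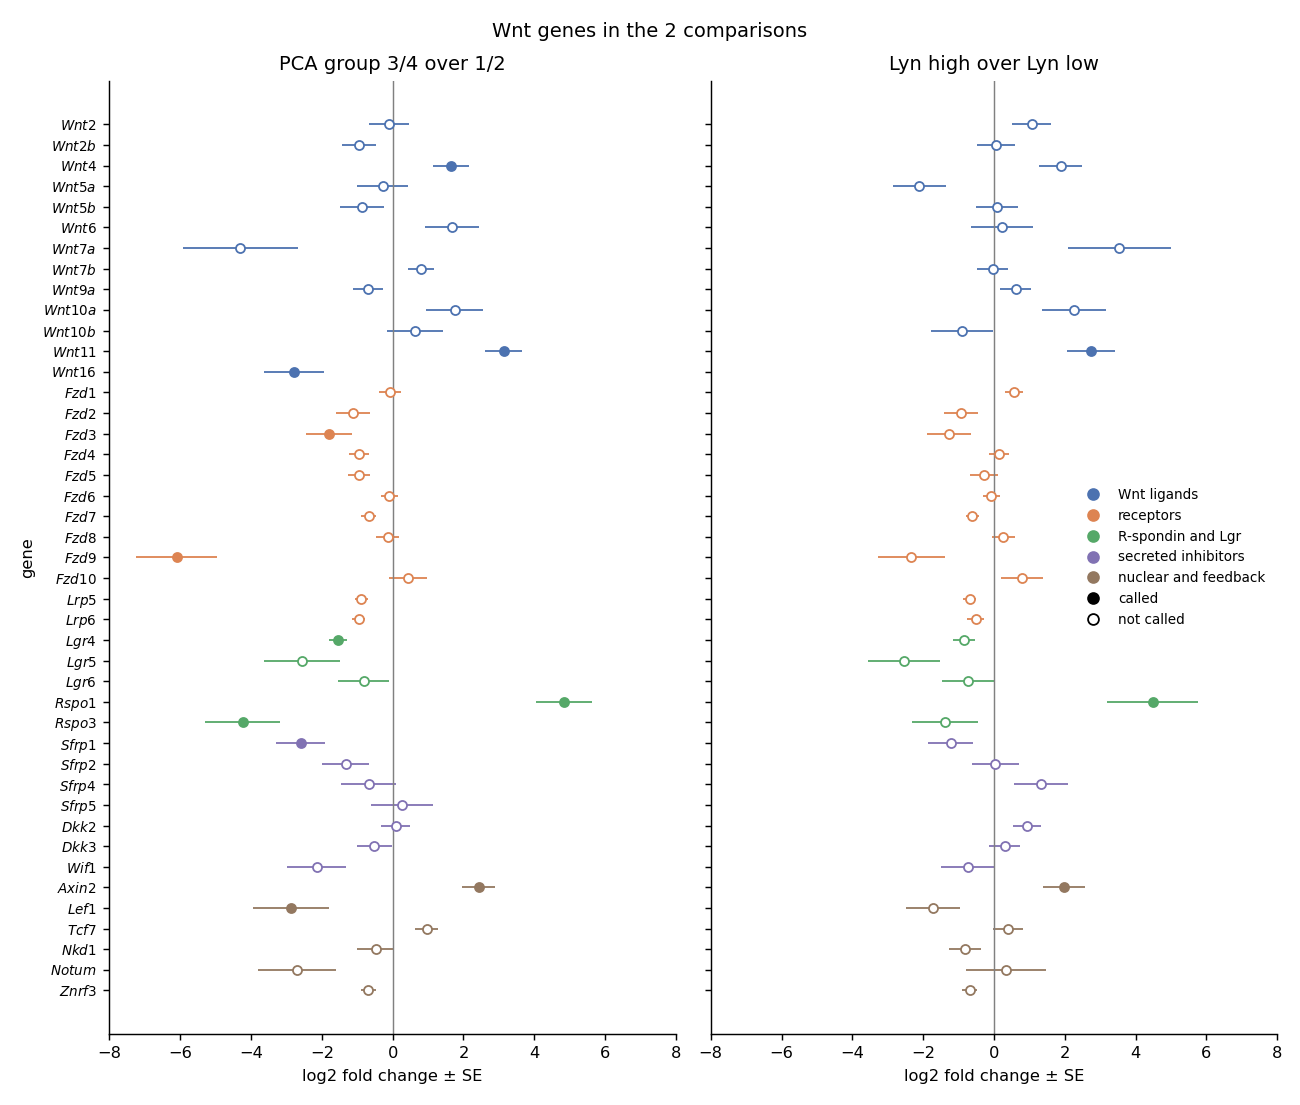
Log2 fold change of the 43 Wnt genes tested between PCA groups (left) and, of these, the 41 tested between Lyn groups (right), with error bars of 1 SE, colours for the role and filled points for called genes. Most receptors lie left of 0 between PCA groups, and Wnt11, Rspo1 and Axin2 are the filled points on the right side of both panels besides Wnt4 between PCA groups.

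Wnt11 ranged from 19.3 to 497.9 (median 136.1) in Lyn-low and from 39.4 to 5937.1 (median 341.7) in Lyn-high tumours. Its log2 fold change was 2.73 ± 0.68 (adjusted p = 0.0108), and 5 of 13 Lyn-high tumours lay above every Lyn-low tumour, 3 of them in PCA group 3/4. Without the Lynflox/wt tumour 25 the value was 2.07 (adjusted p = 0.0432). Rspo1 ranged from 0 to 1467.8 (median 20.1) in Lyn-low and from 0 to 20101.3 (median 414.8) in Lyn-high tumours. The log2 fold change was 4.48 ± 1.28 (adjusted p = 0.0273), and all 5 Lyn-high tumours above the Lyn-low range were in PCA group 3/4. It was 3.96 (adjusted p = 0.0559) without the Lynwt/wt tumour 3 and 5.50 (adjusted p = 0.00998) without the Lynflox/flox tumour 73. Without the tumours rich in muscle or salivary gland RNA, Wnt11 stayed called (3.18, adjusted p = 0.0464) and Rspo1 did not (4.41, adjusted p = 0.103), while Wnt4 was called higher (2.75, adjusted p = 0.0335) and Fzd9 lower (-5.06, adjusted p = 0.0116).

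Axin2 ranged from 59.0 to 1454.2 (median 165.2) in Lyn-low and from 52.5 to 5284.2 (median 786.4) in Lyn-high tumours, with a log2 fold change of 1.98 ± 0.59 (adjusted p = 0.0357). The call was lost in 16 of 26 fits that left out 1 tumour: Lynwt/wt tumours 2, 3, 4, 21 and 40, Lynflox/wt tumours 8, 19, 25, 29 and 31, and Lynflox/flox tumours 35, 37, 56, 70, 73 and 74. The value was 1.49 (adjusted p = 0.107) without the Lynwt/wt tumour 21 and between 1.85 and 1.97 without any of the other 15, and the call was also lost without the tumours rich in muscle or salivary gland RNA (2.08, adjusted p = 0.0824) and with counts summed per animal (1.84, adjusted p = 0.115). With limma voom none of the 3 genes was called (adjusted p = 0.141 for Wnt11, 0.224 for Rspo1 and 0.0995 for Axin2). Wnt4, at 8.1 to 671.0 (median 156.5) and 6.9 to 2496.4 (median 417.2), did not pass (1.88 ± 0.62, adjusted p = 0.0615). Dkk2, which like Dkk1 binds the co-receptors, had the smallest p of the inhibitors (0.93 ± 0.40, adjusted p = 0.181).

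The receptors Lrp5 and Fzd7 were lower in Lyn-high tumours by less than 2-fold. Lrp5 was at 15083.2 to 42949.7 (median 36333.4) in Lyn-low and 11425.9 to 39772.2 (median 17587.9) in Lyn-high tumours, a log2 difference of -0.69 ± 0.19 (adjusted p = 0.0222). Fzd7 differed by -0.61 ± 0.18 (adjusted p = 0.0285), with no Lyn-high tumour above the Lyn-low median. Fzd9, called between PCA groups, had a log2 difference of -2.33 ± 0.95 here (adjusted p = 0.148), with medians of 3925.3 in Lyn-low and 61.2 in Lyn-high tumours.

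Within PCA group 1/2, where 7 Lyn-high tumours meet all 13 Lyn-low tumours, none of the 43 Wnt genes tested was called by edgeR (6 higher and 3 lower at an unadjusted p under 0.05). Few genes were called at all in this fit, 292 higher and 3 lower of 18863 tested. Before adjustment 2317 of these 18863 had an edgeR p under 0.05. Rspo1 had a median of 105.7 (0 to 537.5) in those 7 tumours, against 9629.1 (414.8 to 20101.3) in the 6 Lyn-high tumours of PCA group 3/4 and 20.1 in Lyn-low tumours. The log2 difference between Lyn groups within PCA group 1/2 was -0.31 for Rspo1 (adjusted p = 0.958), 0.60 for Axin2 (adjusted p = 0.786) and 1.46 for Wnt11 (adjusted p = 0.319). Axin2 had medians of 327.8 in the Lyn-high tumours of PCA group 1/2 and 1868.9 in those of PCA group 3/4, and Wnt11 of 341.7 and 1356.1. The 4 intermediate tumours of PCA group 3/4 also held high levels, with a median of 2522.9 for Rspo1, 1741.4 for Wnt11 and 2856.9 for Axin2.

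**Figure D4:**
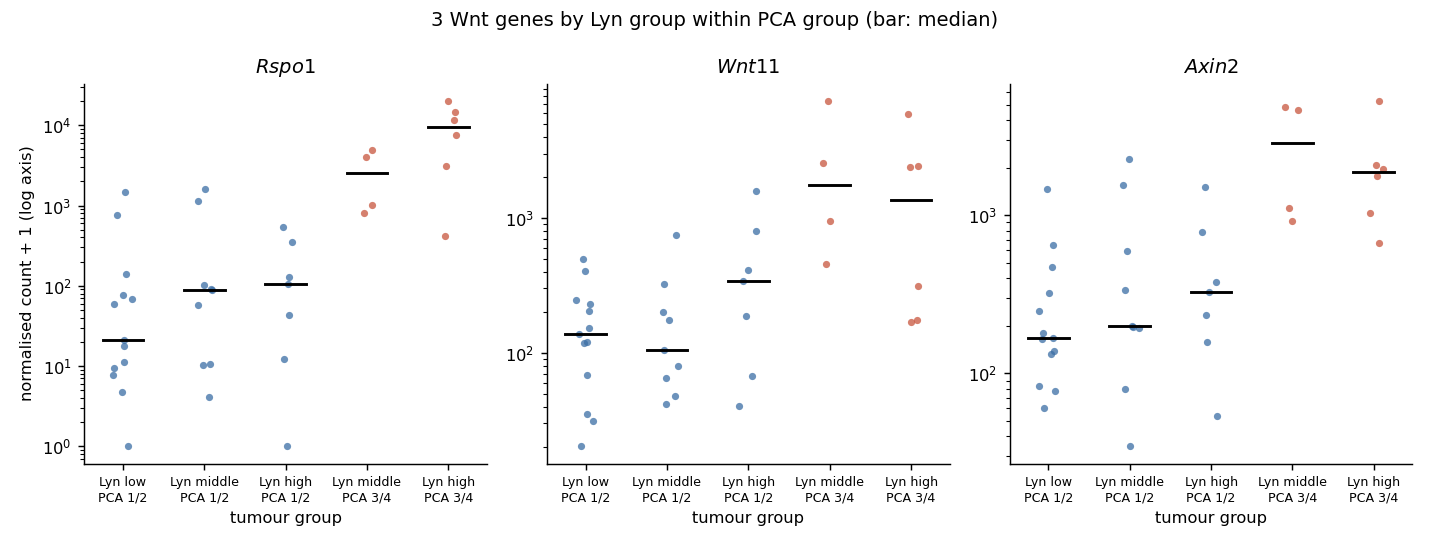
Normalised count of Rspo1, Wnt11 and Axin2 in each tumour on a log axis (1 was added to each count), by Lyn group (middle stands for the intermediate tumours) within each PCA group (1/2 and 3/4), with a bar at each median. For Rspo1 no Lyn-high tumour of PCA group 1/2 lies above the Lyn-low range (medians of 105.7 and 20.1), whereas 2 do for Wnt11 and 1 for Axin2, and no Lyn-low tumour is in PCA group 3/4.

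The 3 calls of the Lyn comparison did not hold with the autopsy year in the model or within a year. Of the Lyn-high tumours 9 of 13, and of the Lyn-low tumours 4 of 13, were from the earlier year. With the year as a covariate edgeR called 0 Wnt genes (5 higher and 6 lower at an unadjusted p under 0.05). Over all 17709 genes tested the calls also fell, from 1068 without the year to 547 with it. The values with the year were 1.94 (adjusted p = 0.186) for Wnt11, 3.20 (adjusted p = 0.665) for Rspo1 and 1.87 (adjusted p = 0.227) for Axin2. Rspo1 differed by 7.37 (adjusted p = 0.0655) in the earlier year and by -0.93 (adjusted p = 0.945) in the later year, Wnt11 by 2.73 (adjusted p = 0.247) and 1.11 (adjusted p = 0.782), and Axin2 by 3.18 (adjusted p = 0.0851) and 0.55 (adjusted p = 0.929). The year difference of the Lyn contrast was not tested. Macrophage markers (8 of 10 called higher in Lyn-high tumours), T cell markers (10 of 12) and B cell markers (6 of the 6 tested) moved with the Lyn groups, at 986.0 to 9080 CPM against 604.0 to 1880 CPM, 5.11 to 279.0 CPM against 6.67 to 29.2 CPM and 5.45 to 322.0 CPM against 1.40 to 5.41 CPM. Adipocyte markers (1 of 9 called higher, with a median log2 difference of 2.82 over the list) summed to 35.4 to 1850 CPM against 11.7 to 155.0 CPM. The part of these cell types in the Wnt differences was not tested.

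The third comparison asked whether the Lyn genotype, the only grouping made without expression values, went with Wnt gene levels. None of the 43 Wnt genes tested was called with edgeR in Lynflox/flox against Lynwt/wt (2 higher and 4 lower with p below 0.05 before adjustment, 0.0316% of all 18998 genes called), in Lynflox/wt against Lynwt/wt (0 and 10, 0.0158%) or in Lynflox/flox against Lynflox/wt (6 and 5, 0.0%). DESeq2 called 0, 1 and 1 in the same order, and limma voom called 0 in each. Over all genes DESeq2 called more than edgeR, 120 of 21330, 148 of 20584 and 106 of 22821, and limma voom called 0 in each. The DESeq2 calls were Notum, at -3.25 in Lynflox/wt against Lynwt/wt (adjusted p = 0.0301, edgeR adjusted p = 0.212), and Sfrp1, at 2.45 in Lynflox/flox against Lynflox/wt (adjusted p = 0.00992, edgeR adjusted p = 0.312).

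Sfrp1 had a median of 4389.9 (134.0 to 13162.5) in Lynwt/wt, 892.1 (454.9 to 5590.3) in Lynflox/wt and 4324.5 (179.9 to 31139.8) in Lynflox/flox tumours, so the ranges overlapped. The genotypes were spread unevenly over the PCA groups, with 3 of 12 Lynwt/wt, 6 of 14 Lynflox/wt and 1 of 13 Lynflox/flox tumours in PCA group 3/4. The genes of the other comparisons had medians of 26.7, 380.5 and 128.9 for Rspo1, of 187.3, 397.0 and 79.1 for Wnt11 and of 351.7, 1067.9 and 247.8 for Axin2 in Lynwt/wt, Lynflox/wt and Lynflox/flox tumours. The lowest edgeR adjusted p in Lynflox/flox against Lynwt/wt was 0.207, for Lgr5 (log2 difference 3.19 ± 1.02), the gene with 1 very high Lynflox/flox tumour.

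The feedback genes were also followed among tumours of 1 PCA group, to ask whether they varied together with Axin2. Lef1, Tcf7, Nkd1, Notum, Znrf3 and Lgr5 were each set against Axin2 within each PCA group, 12 relations in all on log2 CPM, and none passed after adjustment (permutation tests). In PCA group 3/4 Nkd1 had r = 0.73 (permutation p = 0.0171, adjusted p = 0.102) and rho = 0.73 (permutation p = 0.0207, adjusted p = 0.182) over 10 tumours, and r was 0.82 without the 2 tumours farthest from the median Axin2 level. In PCA group 1/2 Nkd1 had r = 0.39 (permutation p = 0.0375, adjusted p = 0.15) and rho = 0.39 (permutation p = 0.0348, adjusted p = 0.182) over 29 tumours, and Tcf7 had r = 0.47 (permutation p = 0.00909, adjusted p = 0.102) and rho = 0.38 (permutation p = 0.0454, adjusted p = 0.182). Without the 2 farthest tumours r was 0.57 for Nkd1 and 0.52 for Tcf7. These 2 relations differed between years, with rho = -0.02 and -0.06 in the 11 tumours of the earlier year and 0.67 and 0.58 in the 18 of the later year.

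**Figure D5:**
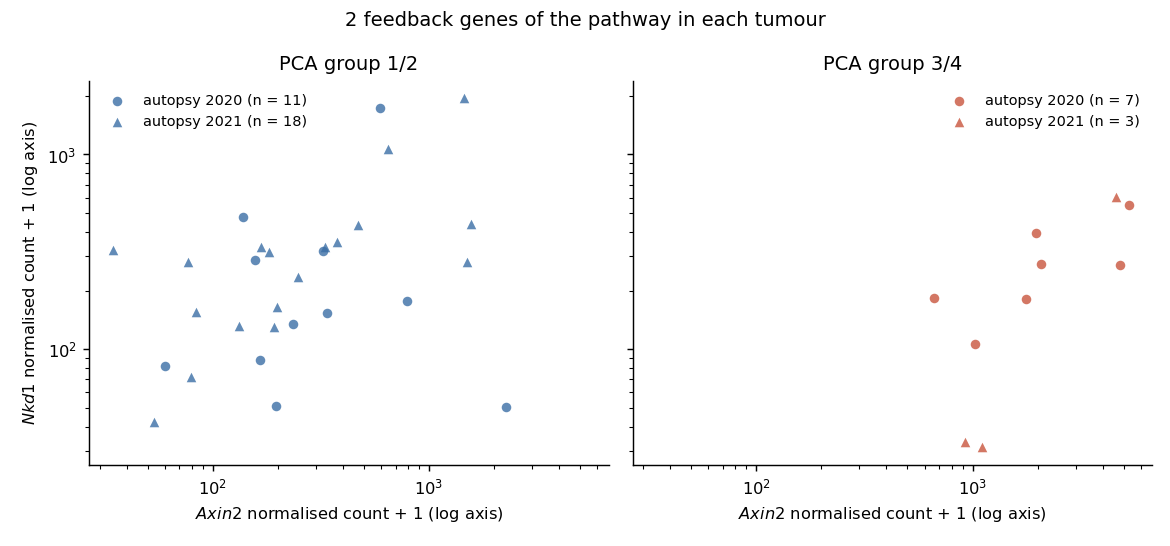
Nkd1 against Axin2 in each tumour, both as normalised counts plus 1 on log axes, for PCA group 1/2 (left) and PCA group 3/4 (right), with circles for the earlier autopsy year and triangles for the later. The 10 PCA group 3/4 tumours lie at higher Axin2 counts than most PCA group 1/2 tumours, and among them rho was 0.73, which did not pass after adjustment.

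Beyond the 49 genes, 91 other gene symbols of the pathway were listed by role. Of these symbols 2 were not found in the count table, and 81 could be tested between PCA groups. Of the 81 tested, 9 were called higher and 10 lower in PCA group 3/4, against 7.71% and 6.45% of all genes tested, with a median log2 difference of -0.11. Inside the cell, none of the 11 genes of the destruction complex, the 9 signal transducers or the 2 ligand secretion genes was called by edgeR (by adjusted p alone 1 destruction complex gene was higher, and 1 of it and 1 transducer lower). Among target genes 3 were higher (Mmp7, Sox9 and Ascl2) and 4 lower (Ephb3, Bambi and Twist1 with the smallest p) of 21 tested. Mmp7, a matrix metalloproteinase, had the largest difference of these, at 9.11 ± 0.83 (adjusted p = 7.05e-11), and Ephb3, a receptor of ephrins, stood at -2.01 ± 0.25 (adjusted p = 9.84e-08). Ascl2 was low and uneven, with median normalised counts of 16.4 and 8.5 in PCA groups 3/4 and 1/2 and a mean of 66.2 (SD 86.5) in PCA group 3/4.

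At the cell surface, the Dkk receptors Kremen1 and Kremen2 differed in opposite directions (-1.02 ± 0.21, adjusted p = 0.000339, and 3.67 ± 0.65, adjusted p = 4.34e-05). Kremen2 was low and uneven, with median normalised counts of 40.6 and 5.9 in PCA groups 3/4 and 1/2. Its mean in PCA group 3/4 was 145.4 (SD 286.8). Ror1, a receptor of Wnt5a, was higher (1.00 ± 0.33, adjusted p = 0.0232) and the glypican Gpc3 lower (-3.24 ± 0.89, adjusted p = 0.00674). Of the other secreted proteins Draxin (3.97) and Dkkl1 (1.84) were higher, and Frzb (-3.04), a relative of the Sfrp proteins, and Igfbp4 (-1.46) were lower, 4 of 8 tested. The first 3 were low and uneven. Their median normalised counts in PCA groups 3/4 and 1/2 were 34.8 and 12.2 for Draxin, 34.8 and 32.0 for Dkkl1 and 20.5 and 47.2 for Frzb. In the higher group the means were 315.4 (SD 513.2) for Draxin, 201.7 (SD 487.4) for Dkkl1 and 211.7 (SD 550.8) for Frzb. In the nucleus Bcl9, a partner of β-catenin, was higher (1.30 ± 0.21, adjusted p = 8.49e-06) and the co-repressor Tle2 (-2.31 ± 0.38, adjusted p = 1.72e-05) and Pygo1 (adjusted p = 0.0336) were lower. Celsr1 was the 1 planar polarity gene called of 10, at 1.12 ± 0.30 (adjusted p = 0.0047). Between Lyn groups 4 of 79 tested were called higher (Draxin, Dkkl1, Bcl9 and Mmp7) and 1 lower (Ephb3), against 5.52% and 0.508% of all genes tested, so the share called higher was near that of all genes. Median counts in Lyn-high and Lyn-low tumours were 18.4 and 14.3 for Draxin and 37.4 and 25.8 for Dkkl1.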

How the data were processed

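RNAseq was carried out on poly(A) RNA of 39 mouse mammary tumours with a directional kit. The authors used fastp for trimming, STAR 2.5.1b for alignment to GRCm38 (reads that map once) and featureCounts 1.5.1 for counts on Gencode vM17. The strand setting is not given in the sources used here. The deposited values used were these raw counts per gene. Of the values between 1 and 10, 79.8% were even, and the number of fragments behind a count is unknown. Total counts were 50490044 to 83122719 per tumour. Deposited normalised columns (39, 1 per tumour, and 4 means) and the authors' fold changes and p-values were not used.

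The 49 genes and the lists were chosen with earlier results of these data known. Counts were compared with edgeR 4.0.16 (R 4.3.3): low-count filter, TMM, quasi-likelihood test, Benjamini-Hochberg adjustment over all genes kept, and a call where the adjusted p was below 0.05 with a change of 2-fold or more. Genotypes were fitted together over 39 tumours. Normalised counts are counts scaled by TMM to the mean library, and RPKM uses the exon length of Gencode M21. Alternatives were DESeq2 1.42.0, limma 3.58.1 (voom, animal as random block), RLE scaling, 2 filters, autopsy year, sums per animal, single years and leaving out each tumour. After seeing the data, fits without the 11 tumours over 100 CPM of muscle or salivary markers were added. Autopsy year and animal were read from the database number in the labels (its first part, and its first and second part), which is an inference. Genes named are all called genes and, per role, that with the highest level and those with the smallest p between PCA and Lyn groups; others are named as next in value. Correlations used log2 CPM (prior count 1) and 100000 permutations with scipy 1.17.1. Tumours of 1 animal entered as separate samples, which makes p-values too small where they are alike (consensus correlation 0.0353 in the PCA and 0.0689 in the Lyn comparison). Scripts were tested on simulated data.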

Additional observations from a re-analysis of the deposited data

How the results depend on the processing

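Between PCA groups, the count of called Wnt genes was 11 and stayed between 9 and 16 under other normalisation, filters, tests, sums per animal and without the tumours rich in muscle or salivary gland RNA (the last chosen after seeing the data), and when each tumour was left out. It was 4 in the tumours of the earlier autopsy year alone, of 41 tested. In the tumours of the later year alone it was 11, of 45 tested, but these were not all the same genes. Between Lyn groups, the count of 3 became 0 with the year as a covariate, in the tumours of the earlier year, in those of the later year (where 0 of 19468 genes were called at all) and in PCA group 1/2 alone, 1 with limma voom (Fzd9, lower) and 7 with DESeq2 (Wnt4, Wnt10a, Wnt11, Rspo1 and Axin2 higher, Wnt5a and Fzd9 lower). Calls over all genes changed as well, from 1068 of 17709 in the main fit to 547 of 17709 with the year. They were 303 of 19209 in the earlier year and 295 of 18863 in PCA group 1/2 alone. With limma voom they were 877 of 17709 and with DESeq2 1780 of 24840. Leaving out each tumour gave 2 to 5, with 5 without the Lynwt/wt tumour 39. Rspo1 turned to -0.93 in the later year alone and to -0.31 within PCA group 1/2. Between genotypes, the count of 0 became 1 for Lynflox/wt against Lynwt/wt without a low-count filter (Dkk1, -7.57, from 1 high Lynwt/wt tumour) and with DESeq2, and 1 for Lynflox/flox against Lynflox/wt with DESeq2. Other pathway genes called fell from 19 to 7 in the earlier year alone. Of the relations with Axin2, 0 passed, but 3 of 6 did in the PCA group 1/2 tumours of the later year (Nkd1, Tcf7 and Lgr5). Single years hold fewer tumours, and the cause of these changes was not tested. Tumour numbers are not shared between groups and pair no tumours, and shared animals entered through the sums per animal and the random block of limma voom. PCA group 3/4 held 10 tumours of 8 animals, and 6 of the 49 genes had too few reads to test.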
